A study of Mus musculus with 43 samples.

Results

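Mouse CD4 T cells that met a high amount of antigen without interruption were set against T cells that met an intermediate amount, both sorted on day 10 after transfer. All 8 day 10 arrays whose titles read high or int were taken, 4 of each, out of 43 arrays in the series, and the comparison was described over 22180 genes, with 1 probe set for each gene symbol.

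The transferred cells of both groups were AND T cells, which carry a transgenic receptor for a peptide of moth cytochrome c, bear the CD45.1 marker and lack Rag2. In the high group they went into cMCC mice, whose MHC class II positive cells constitutively make an invariant chain that holds the peptide, with 0 µg/ml doxycycline. In the int group they went into iMCC mice, in which doxycycline switches the construct on in dendritic cells; these recipients were given an antibody against CD40 1 day before transfer and drank 100 µg/ml doxycycline from then to the sort. The labels do not say whether the cMCC recipients had the antibody too. Strain, the cells that present the peptide, doxycycline and the amount of antigen therefore differ together between the groups and cannot be told apart. Nothing in the labels says that the arrays of a group came from separate recipients. The p-values therefore measure a spread between arrays within groups, which may be technical. This spread was pooled over all 43 arrays, so it is not that of high and int alone. Day 10 arrays of 2 further iMCC groups, none and low, with 5 arrays each, give levels for reference. Both had 100 µg/ml doxycycline before day 3, as int did. From day 3, none had 0 µg/ml and low 10 µg/ml. A further reference is 5 arrays of naive AND cells, listed at day 3 with 0 µg/ml and so not matched in day. The high group has no later time point, since the labels describe the AND cells in cMCC mice as lost to apoptosis by day 30.

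A T cell that binds its peptide signals through the receptor complex and the adaptor LAT to calcium, NFAT, MAP kinases and NF-kappaB, which switch on cytokines and costimulatory molecules. When the antigen does not go away, CD4 T cells are known to take on inhibitory receptors such as PD-1 and to lose part of their responsiveness, states described as anergy, exhaustion or adaptive tolerance. The series was set up to compare T cells under different amounts of persisting antigen; here the amount is not separated from the other differences between the recipients.

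Cells under high antigen had more transcripts of secreted signals (Ccl3, Ccl4, Xcl1, Il21, Csf1), of both IL-18 receptor chains, of the inhibitory receptor gene Pdcd1 and of Sostdc1 and Spry2, which encode inhibitors of BMP or WNT and of MAP kinase signals. They had less of Ctla2a, Tnfsf4, Sox4, Eomes, Gzmk, Cxcr5 and of several proteins that act close to the T cell receptor (Lat, Grap2, Themis, Rasgrp1). In contrast, Egr2, Nr4a1, Lag3 and Tox, known as readouts of receptor signal or of chronic stimulation, did not pass the test between the groups. All values are log2 signals as deposited, and a difference of 1 is a doubling; a gene is called where limma gave an adjusted p under 0.05 over all genes. Since each array holds the RNA of many cells, fewer cells of a kind and less RNA per cell cannot be told apart.

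In all, 664 genes (2.99%) were called, 311 higher (1.40%) and 353 lower (1.59%) in high. A change of at least 2-fold was met by 310 of them (1.40%), 152 higher and 158 lower. Over all genes the median difference was 0.02 and the median standard error 0.19. The largest changes lay on the higher side, where 13 called genes differed by over 8-fold, against 3 on the lower side. In 255 of the genes called higher, all 4 high arrays lay above all 4 int arrays, and in 301 of those called lower they lay below; over all genes tested these shares were 3.78% and 3.68%. An unadjusted p under 0.05 was reached by 2914 genes (13.1%).

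**Figure D1:**
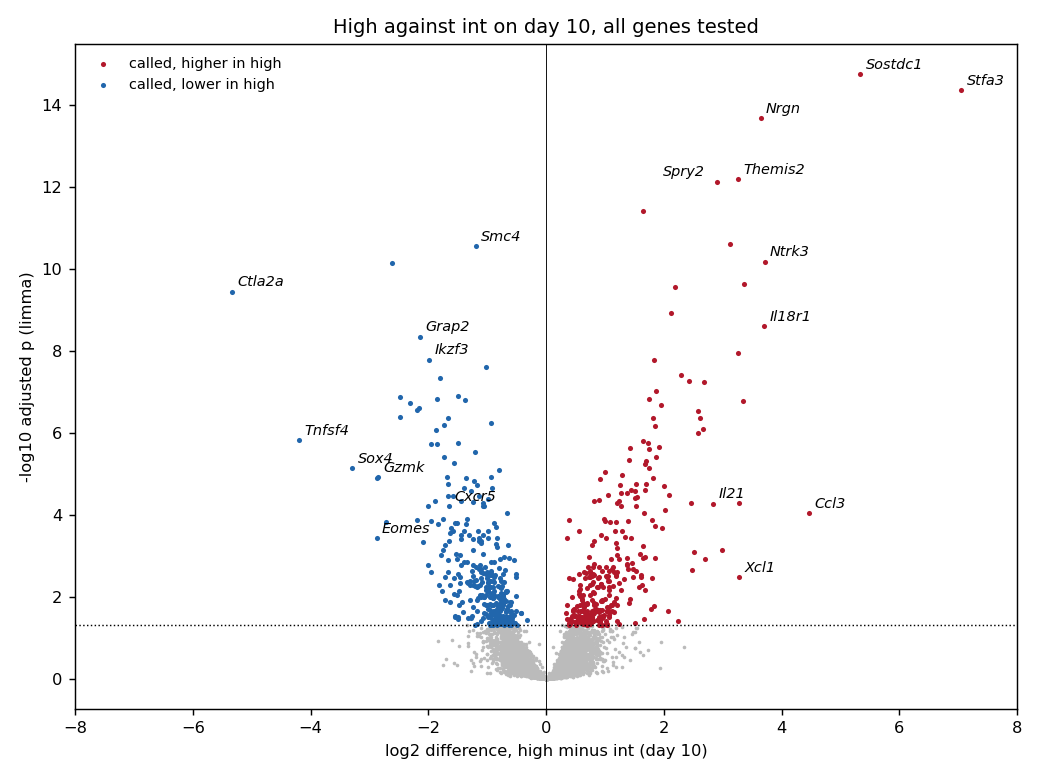
Each point is 1 of 22180 genes; the horizontal axis gives the log2 difference, high minus int, and the vertical axis minus log10 of the adjusted p from limma, with the dotted line at 0.05. Red points are called higher in high (311) and blue points lower (353), with Stfa3 at 7.05 and Ctla2a at -5.33 as the outermost genes on each side.

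The high arrays were less alike than the int arrays, and gene length moved with the groups. Correlations over all genes were 0.957 to 0.975 among high arrays, 0.975 to 0.981 among int arrays and 0.946 to 0.972 between the groups. Genes called lower in high had a median genomic span, introns included, of 62 kb, against 17 kb for those called higher and 15.9 kb for those not called. Among 3913 genes of mean level 6 or more, the share called lower was 17.2% in the longest of 5 equal bins by span and 2.43% in the shortest, while the share called higher was 0.383% and 3.96%. An index for each array, the mean deviation of the genes in the longest bin minus that of the shortest, was -0.42, -0.13, -0.20 and 0.25 in high replicates 2 to 5, and 0.40, 0.29, 0.38 and 0.39 in int replicates 1 to 4. The part of this shift in the counts was not tested, but its trend could be removed: among genes of mean level 6 or more, the calls were 161 higher and 396 lower before removal of the trend with span in each array, and 208 higher and 242 lower after it. Of the 93 and 251 genes of that level called higher and lower in the full set, 89 and 172 were still called the same way. Without high replicate 2, 495 genes were called over the full set, 285 higher and 210 lower. Other arrays moved the count too: it was 458 without int replicate 1, 478 without int replicate 3 and 488 without high replicate 3. It rose to 922 without high replicate 5, the only high array with an index above 0.

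**Figure D2:**
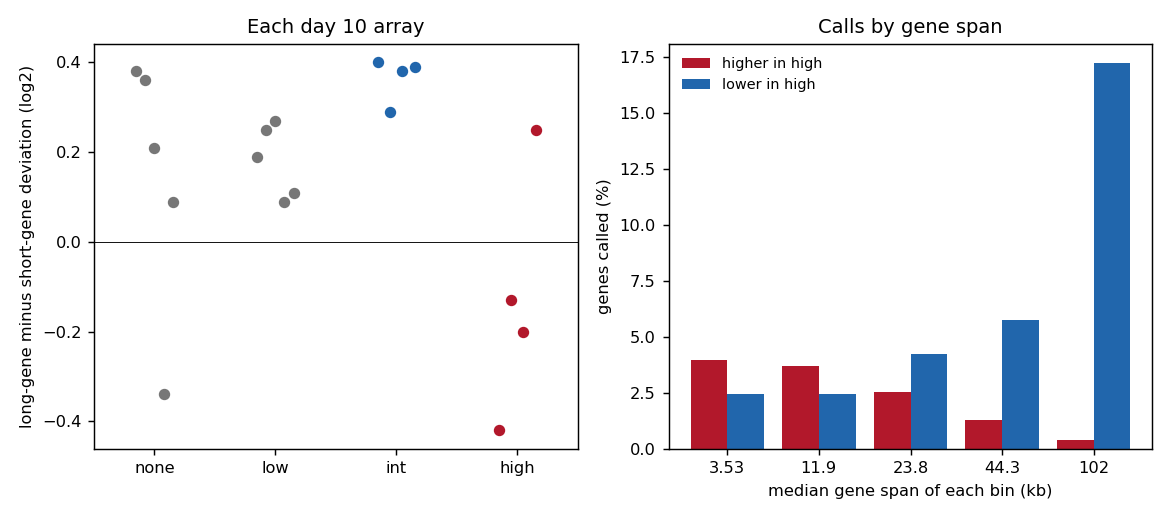
Left, the long-gene minus short-gene index (log2) of each day 10 array by group, in which 3 of the 4 high arrays and 1 none array lie below 0 and all int arrays lie between 0.29 and 0.40. Right, the percentage of genes called higher (red) and lower (blue) in high within 5 equal bins of gene span, over genes of mean level 6 or more; the lower share climbs to 17.2% in the longest bin.

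Transcripts of the sorted cell were present throughout. Cd4 averaged 10.00 ± 0.61 in high and 9.75 ± 0.28 in int (SD, n = 4 arrays each, as for every group mean below), and Cd3e 11.44 ± 0.29 in high and 11.32 ± 0.10 in int; neither was called with all arrays, though without high replicate 2 Cd4 was called higher by 0.56 (adjusted p = 0.0406). Thy1, which encodes the CD90 used in the sort, was lower at 9.69, 10.45, 10.19 and 10.17 in high, against 10.98, 11.13, 11.10 and 11.05 in int, a difference of -0.94 ± 0.12 (SE, adjusted p = 5.86e-07). Ptprc, which encodes CD45, averaged 10.96 ± 0.23 in high and 11.30 ± 0.12 in int; its difference of -0.33 (adjusted p = 0.0365) became 0.01 once the trend with gene span was removed, and the call was lost without high replicate 2 (-0.22) or 3 (-0.36) or int replicate 1 (-0.29), 3 (-0.34) or 4 (-0.31). Rag2 was near the floor of the scale, at 3.04 ± 0.29 in high and 2.70 ± 0.07 in int. None of 13 B cell markers, 6 markers of erythroid cells and platelets and 7 that mark NK cells, CD8 cells or gamma-delta T cells was called with all arrays, with unlogged signals summing to 109 to 132 in high and 129 to 244 in int for the B cell markers. Over all genes 2.99% were called, so at that share lists this short would hold few calls or none. The brightest B cell marker, Cd22, had 5.07, 4.99, 5.24 and 4.02 in high, against 4.76, 5.52, 6.87 and 7.15 in int (difference -1.25, adjusted p = 0.0641). In int, 12 of the 13 B cell markers averaged under 5. Without high replicate 2, 1 of the 7 NK, CD8 and gamma-delta markers was called higher. The brightest of these 7, Klrb1c, had 4.67, 5.52, 6.45 and 6.80 in high, against 4.96, 4.86, 4.90 and 5.57 in int (difference 0.79, adjusted p = 0.188 with all arrays), and their summed signal was 100 to 176 in high and 101 to 123 in int. Of 28 myeloid and dendritic cell markers, 1 was called (3.57%, near the 2.99% over all genes), Cst3 (higher by 0.95, adjusted p = 0.0326). Its call was lost without high replicate 2 (0.86), 3 or 4 (0.93 each) or int replicate 1 (0.75) or 3 (0.82). The summed signal of the 28 markers was 1089 to 1358 in high and 1099 to 1441 in int.

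In the list of cytokine and chemokine ligands, high cells had more of most of the genes that differed. Bmp7 (-2.48) and Fasl (-1.67), ligand genes outside this list, were called lower and are described below. Of 33 measured cytokine and chemokine ligand genes, 9 rose and 1 fell, with a median of 0.20 (all genes: 1.40% higher, 1.59% lower, median 0.02). Without high replicate 2 the same numbers, 9 and 1, were found. These are short genes, with a median span of 4.85 kb. Of the 8 at a mean level of 6 or more, 3 were higher and 2 lower after removal of the span trend (median -0.11). Before it they were 3 and 1 (median -0.04). Ccl3, a chemokine that draws in other leukocytes, had 9.98, 10.52, 9.44 and 8.83 in high, against 4.17, 5.68, 5.48 and 5.59 in int. The groups lay over 3 units apart at their nearest arrays, and the difference was 4.46 ± 0.75 (SE, adjusted p = 9.2e-05). Its neighbour gene Ccl4 averaged 8.00 ± 1.18 in high and 5.52 ± 0.91 in int (difference 2.48, adjusted p = 0.00226). Xcl1, the chemokine read by cross-presenting dendritic cells, had 9.48, 10.52, 9.97 and 7.99 in high, against 5.63, 5.59, 6.85 and 6.83 in int (difference 3.27 ± 0.71, adjusted p = 0.00334), so that its lowest high array was also above all int arrays. Il21, the cytokine through which helper cells act on B cells and CD8 T cells, had 9.22, 9.59, 9.86 and 9.62 in high, against 6.09, 7.04, 7.02 and 6.83 in int. It rose by 2.83 ± 0.46 (SE, adjusted p = 5.41e-05), and its means of 3.59 in none and 4.34 in low put high at the top of the 4 day 10 groups. Il2, the T cell growth factor, and Ifng did not pass the test: Il2 averaged 4.10 ± 0.50 in high and 3.92 ± 0.47 in int, and Ifng 6.98 ± 0.81 in high and 6.76 ± 0.41 in int.

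The 1 member of the cytokine and chemokine ligand list that fell was also the second lowest of all named genes. Tnfsf4, which encodes OX40 ligand, had 3.15, 3.38, 4.27 and 3.24 in high, against 7.24, 6.92, 8.29 and 8.36 in int. The int arrays stood alone on day 10, since none averaged 2.79 ± 0.22 and low 2.98 ± 0.37. Naive cells, which are not matched in day, averaged 6.11 ± 1.40. For Tnfsf4 the difference between high and int was -4.19 ± 0.57 (SE, adjusted p = 1.52e-06). Its receptor gene Tnfrsf4, which encodes OX40, went the other way: it had 9.07, 9.14, 9.03 and 8.10 in high, against 6.87, 7.15, 7.21 and 7.50 in int, a rise of 1.65 ± 0.32 (SE, adjusted p = 0.000581).

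**Figure D3:**
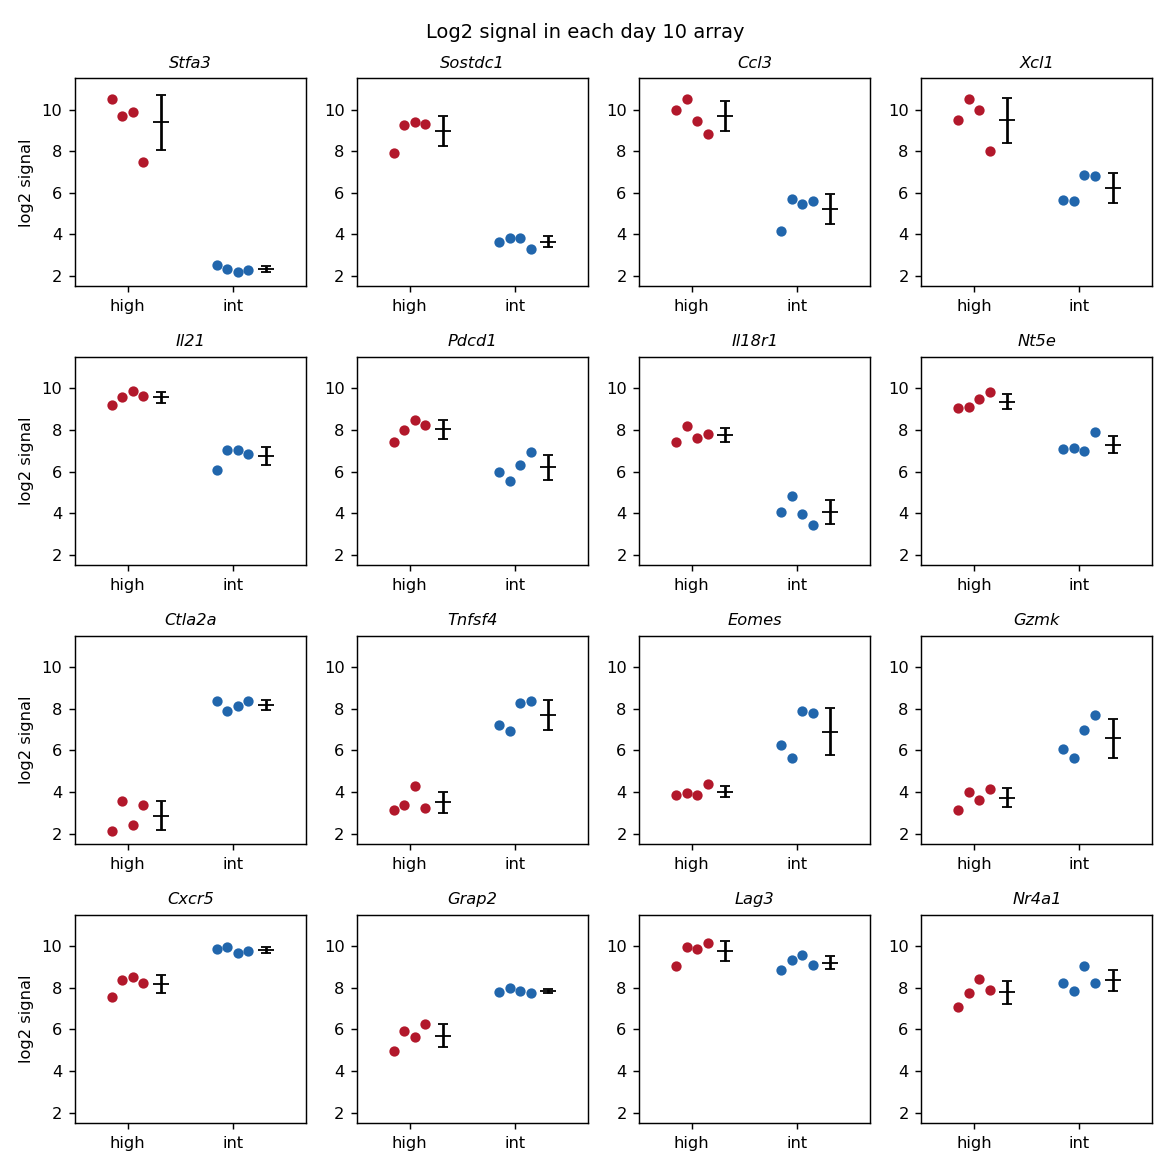
Log2 signal of 16 genes in each array of high (red, left) and int (blue, right), with the group mean ± SD in black beside the points (n = 4 each). Stfa3, Sostdc1, Ccl3, Xcl1, Il21, Pdcd1, Il18r1 and Nt5e lie higher in high with no overlap, Ctla2a, Tnfsf4, Eomes, Gzmk, Cxcr5 and Grap2 lie lower with no overlap, and the groups of Lag3 and Nr4a1 overlap.

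The promoters of 3 of the higher ligand genes are shown because these genes rose together and NFAT is the textbook factor of receptor-driven cytokine genes. Each window runs from 250 bases before to 50 after the annotated start (RefSeq, GRCm38.p6), 5′ to 3′ on the strand of the gene; Il21 lies at chr3:37232587-37232886, Ccl3 at chr11:83649329-83649628 and Xcl1 at chr1:164935473-164935772, all on the minus strand. Capitals mark the NFAT core TGGAAA or its reverse complement TTTCCA.
Il21: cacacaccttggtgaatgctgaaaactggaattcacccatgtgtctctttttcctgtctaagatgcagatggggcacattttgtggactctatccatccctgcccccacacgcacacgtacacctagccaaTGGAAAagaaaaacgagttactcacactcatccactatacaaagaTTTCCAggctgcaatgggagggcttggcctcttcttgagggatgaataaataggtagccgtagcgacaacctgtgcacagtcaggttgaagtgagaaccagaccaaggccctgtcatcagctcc
Ccl3: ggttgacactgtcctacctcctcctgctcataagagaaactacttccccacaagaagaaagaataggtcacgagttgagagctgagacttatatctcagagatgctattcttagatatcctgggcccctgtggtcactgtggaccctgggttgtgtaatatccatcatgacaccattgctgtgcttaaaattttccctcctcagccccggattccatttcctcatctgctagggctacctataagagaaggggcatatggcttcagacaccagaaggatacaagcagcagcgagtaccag
Xcl1: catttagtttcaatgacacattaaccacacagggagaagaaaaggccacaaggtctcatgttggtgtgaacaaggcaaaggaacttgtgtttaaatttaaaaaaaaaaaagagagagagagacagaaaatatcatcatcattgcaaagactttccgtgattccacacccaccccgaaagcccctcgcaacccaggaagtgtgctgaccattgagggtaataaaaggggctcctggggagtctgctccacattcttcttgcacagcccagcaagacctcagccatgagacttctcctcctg
The Il21 window holds the core at positions -119 and -74 from the start; the Ccl3 and Xcl1 windows hold neither form of these letters. Searched on both strands, the core occurred in 20.0% of the 16990 windows of tested genes, in 21.8% of 248 windows of genes called higher and in 13.4% of 268 windows of genes called lower. The AP-1 element TGACTCA and its reverse complement TGAGTCA, which do not overlap the NFAT core in their letters, occurred in 4.72% of all windows, 5.24% of those called higher and 3.36% of those called lower. A match is a description of letters and not of a bound site.

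Cytokine receptor genes moved in both directions, 4 higher and 2 lower of 22 measured, with a median of -0.18. Beside this list and those below, the shares over all genes were 1.40% higher and 1.59% lower, with a median of 0.02. Il18r1, the ligand-binding chain of the IL-18 receptor, had 7.41, 8.19, 7.61 and 7.80 in high, against 4.05, 4.81, 3.94 and 3.41 in int (difference 3.70 ± 0.38 SE, adjusted p = 2.51e-09). The int group was the low one among the day 10 groups, since none averaged 6.98 ± 0.63 and low 6.79 ± 0.61. Il18rap, the signalling chain of the same receptor, followed the same order, with 5.88 ± 0.40 in high and 3.22 ± 0.26 in int (difference 2.66, adjusted p = 8.4e-07) beside 5.61 ± 0.49 in none. Il12rb2, the inducible chain of the IL-12 receptor, averaged 5.34 ± 0.39 in high and 3.43 ± 0.34 in int (difference 1.91, adjusted p = 2.19e-06). Il10ra fell, with 5.73, 5.96, 6.48 and 7.02 in high, against 8.27, 7.74, 8.27 and 8.23 in int (difference -1.83 ± 0.32 SE, adjusted p = 0.00017).

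Il7r, whose product carries the survival signal of resting and memory T cells, was less certain. It had 7.81, 7.78, 7.94 and 8.11 in high, against 7.58, 6.85, 5.97 and 4.59 in int, so the high arrays were close together and the int arrays spread over almost 3 units. The difference was 1.66 ± 0.46 (SE, adjusted p = 0.0343), and both groups lay under none (10.25 ± 0.33) and low (9.88 ± 0.33). The call was lost on leaving out any of the 4 high arrays, with differences of 1.60 to 1.71, or int replicate 3 (1.57, adjusted p = 0.107) or int replicate 4 (1.11, adjusted p = 0.262).

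**Figure D4:**
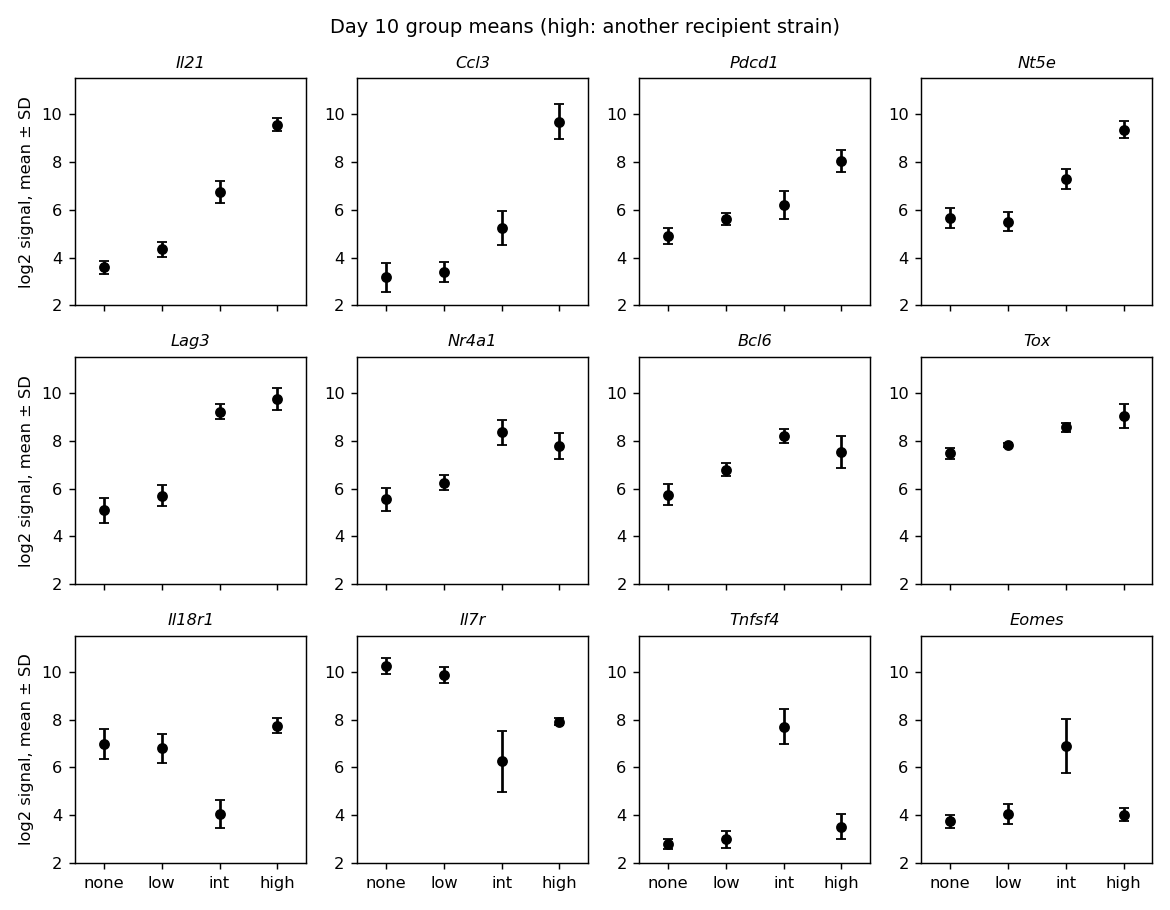
Mean log2 signal ± SD of 12 genes in the day 10 groups none, low (n = 5 each), int and high (n = 4 each); the first 3 groups are iMCC recipients and high is the cMCC strain. Il21, Ccl3, Pdcd1 and Nt5e are highest in high, the SD ranges of int and high overlap for Lag3, Nr4a1, Bcl6 and Tox, and for Il18r1, Il7r, Tnfsf4 and Eomes the int group lies apart from both low and high.

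Some genes that the T cell receptor switches on within hours were higher in high, but not those most used as its readouts. Of 32 measured, 5 rose and 0 fell, with a median of 0.37, and without high replicate 2 the counts were 6 and 0. Their median span was short, at 7.22 kb. Of the 16 at a mean level of 6 or more, 2 were higher and 0 lower after removal of the span trend (median 0.00). Before it they were 2 and 1 (median 0.13). Spry2, an inhibitor of RAS and MAP kinase signals, had 6.88, 6.86, 5.68 and 5.72 in high, against 3.14, 3.47, 3.41 and 3.51 in int (difference 2.90 ± 0.22 SE, adjusted p = 7.61e-13). It was near its level in none (3.18 ± 0.23) and low (3.35 ± 0.35) in the int arrays, so high alone stood out. Bhlhe40, a transcription factor that restrains Il10, averaged 8.00 ± 0.52 in high and 5.54 ± 1.01 in int (difference 2.46, adjusted p = 5.24e-05). Nr4a2, an orphan nuclear receptor, averaged 5.79 ± 0.86 in high and 4.21 ± 0.63 in int (difference 1.58, adjusted p = 0.00587). With only the 8 high and int arrays in the fit this call was lost, and 1 high array, replicate 2 with 4.58, lay within the range of int for Nr4a2. Its relative Nr4a1 had 7.08, 7.73, 8.42 and 7.88 in high, against 8.24, 7.86, 9.06 and 8.24 in int, which overlap (difference -0.57 ± 0.31 SE, adjusted p = 0.45). Egr2, an NFAT target linked to anergy, had 6.17, 7.73, 7.78 and 8.02 in high, against 7.56, 7.73, 8.15 and 7.88 in int (difference -0.41 ± 0.32 SE, adjusted p = 0.684); without high replicate 2 the difference was 0.01.

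The proximal signalling machinery leaned to lower levels, with 6 of 25 measured genes lower and 2 higher and a median of -0.14. These are long genes, with a median span of 40.7 kb, and after removal of the trend with span all 25 gave 5 lower and 2 higher and a median of 0.02; without high replicate 2 the counts were 4 lower and 3 higher. Lat, the membrane adaptor on which the first signalling complex is built, had 9.69, 9.99, 9.97 and 10.58 in high, against 10.77, 11.18, 11.26 and 11.14 in int (difference -1.03 ± 0.12 SE, adjusted p = 2.52e-08). Grap2, the adaptor that ties SLP-76 to LAT, had 4.97, 5.94, 5.62 and 6.28 in high, against 7.78, 7.99, 7.85 and 7.74 in int (difference -2.14 ± 0.22 SE, adjusted p = 4.61e-09). No high array of either gene reached an int array. Themis, a regulator of receptor signal strength, averaged 7.19 ± 0.18 in high and 8.40 ± 0.17 in int, and Rasgrp1, which loads RAS with GTP, 7.40 ± 0.30 in high and 8.78 ± 0.16 in int. Their differences of -1.21 (adjusted p = 3.03e-06) and -1.38 (adjusted p = 1.63e-07) remained past the threshold after removal of the span trend, as did those of Lat and Grap2, but the difference of Themis shrank to -0.77 (adjusted p = 0.00109). In none these 4 genes averaged 11.13 for Lat, 8.52 for Grap2, 8.75 for Themis and 8.61 for Rasgrp1, and for each of them the high mean was farther from none than the int mean.

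Inhibitory receptor genes gave 3 higher and 0 lower of 18 measured, with a median of 0.58. Pdcd1, which encodes PD-1, had 7.42, 8.01, 8.49 and 8.22 in high, against 5.98, 5.56, 6.31 and 6.95 in int, without overlap (difference 1.84 ± 0.37 SE, adjusted p = 0.00116). Cd160 averaged 5.80 ± 0.73 in high and 4.38 ± 0.16 in int (difference 1.41, adjusted p = 0.0141), a call that was lost without high replicate 3 (1.31, adjusted p = 0.0605) or high replicate 4 (1.18, adjusted p = 0.0909). Lag3, which binds MHC class II, had 9.06, 9.97, 9.84 and 10.14 in high, against 8.84, 9.34, 9.57 and 9.10 in int; the ranges overlap and the difference of 0.54 ± 0.47 (SE, adjusted p = 0.718) did not pass. Both groups were far above none, which averaged 5.09 ± 0.51 for Lag3.

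Anergy-associated genes were split, 3 higher and 3 lower of 22 measured, with a median of -0.05; without high replicate 2 they were 3 and 1. Of the 17 at a mean level of 6 or more, 2 were higher and 2 lower after removal of the span trend, against 1 and 3 before it. Nt5e, which encodes the ecto-enzyme CD73 that makes adenosine, had 9.04, 9.10, 9.50 and 9.81 in high, against 7.09, 7.16, 7.01 and 7.89 in int, a rise of 2.08 ± 0.33 (SE, adjusted p = 3.37e-05). Rnf128, the ubiquitin ligase GRAIL, was called at a low signal of 3.44 ± 0.32 in high and 2.62 ± 0.09 in int (difference 0.82, adjusted p = 4.64e-05). Cbl, a ubiquitin ligase that takes down activated receptors, fell to 7.04 ± 0.62 in high, against 8.22 ± 0.17 in int (difference -1.18, adjusted p = 0.00599), and the call was lost without high replicate 2 (-0.94, adjusted p = 0.0655).

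Transcription factors linked to exhaustion moved both ways, 3 higher and 2 lower of 16 measured, with a median of 0.00. Eomes, a T-box factor of cytotoxic and memory cells, had 3.84, 3.95, 3.88 and 4.41 in high, against 6.25, 5.63, 7.90 and 7.82 in int (difference -2.88 ± 0.53 SE, adjusted p = 0.000378). The high arrays lay at the level of none (3.75 ± 0.27) and low (4.05 ± 0.43), and the int arrays above all of them. Ikzf3, the Ikaros family factor Aiolos, averaged 5.58 ± 0.69 in high and 7.57 ± 0.22 in int (difference -1.99, adjusted p = 1.68e-08). Id2, which blocks E proteins, averaged 8.92 ± 0.16 in high and 7.72 ± 0.23 in int (difference 1.20, adjusted p = 0.000979). Tox had 8.31, 9.30, 9.03 and 9.44 in high, against 8.32, 8.58, 8.77 and 8.57 in int; its difference of 0.46 ± 0.23 (SE, adjusted p = 0.373) did not pass, but it was 0.94 and called after removal of the span trend. Myb and Sox4 came from the lowest genes overall. Myb averaged 7.38 ± 0.22 in high and 9.55 ± 0.23 in int (difference -2.16, adjusted p = 2.57e-07). Sox4 averaged 3.62 ± 0.51 in high, against 6.91 ± 0.98 in int (difference -3.29, adjusted p = 7.49e-06), beside 7.95 ± 0.17 in naive cells.

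Over all measured members, the helper lineage lists each had more members called higher than lower, but this did not hold for the brighter Th1 and Tfh genes. Of 21 Th1 genes, 6 rose and 2 fell (median 0.12), the risers being the chemokines and the IL-12 and IL-18 receptor genes above together with Bhlhe40. Of the 8 Th1 genes at a mean level of 6 or more, 0 were higher and 2 lower after removal of the span trend, against 1 and 1 before it. Tbx21, the defining Th1 factor, averaged 6.98 ± 0.55 in high and 7.22 ± 0.25 in int and did not pass (adjusted p = 0.8). Of 19 Tfh genes, 5 rose and 2 fell (median 0.16; 4 and 1 without high replicate 2). Of the 13 Tfh genes at that level, 2 were higher and 2 lower after removal of the trend, against 2 and 3 before it. Sostdc1, a secreted BMP and WNT antagonist, had 7.89, 9.28, 9.42 and 9.32 in high, against 3.64, 3.84, 3.83 and 3.28 in int (difference 5.33 ± 0.33 SE, adjusted p = 1.82e-15). Cxcr5, the receptor that brings T cells into B cell follicles, fell: it had 7.55, 8.38, 8.50 and 8.25 in high, against 9.86, 9.98, 9.65 and 9.77 in int (difference -1.65 ± 0.27 SE, adjusted p = 6.25e-05). So 2 genes of the same list that are best known from follicular helper cells moved apart, with no overlap of arrays in either. Bcl6, the Tfh factor, averaged 7.54 ± 0.67 in high and 8.20 ± 0.28 in int and did not pass (difference -0.67, adjusted p = 0.318).

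Of 14 Th2 and Th17 genes, 3 were called higher and 0 lower, all of them dim, with group means of 3.21 to 3.97 in high; under quantile normalization 1 was called higher. Of 21 regulatory and Tr1 genes, 3 rose and 1 fell; the largest was Capg, an actin-capping protein, with 5.83 ± 0.39 in high and 4.09 ± 0.24 in int (difference 1.74, adjusted p = 2.48e-06). Foxp3 was at 3.41 ± 0.35 in high and 3.60 ± 0.27 in int (adjusted p = 0.87). Of 19 cytotoxic and killer-lectin genes, 3 rose and 2 fell. Gzmk, a granzyme, had 3.15, 4.00, 3.63 and 4.15 in high, against 6.06, 5.62, 6.99 and 7.69 in int (difference -2.86 ± 0.43 SE, adjusted p = 1.24e-05). Fasl, the death ligand, averaged 5.00 ± 0.39 in high and 6.67 ± 0.36 in int (difference -1.67, adjusted p = 0.00251). On the higher side stood Klrc1, which encodes the receptor NKG2A, with 6.85 ± 0.82 in high and 4.34 ± 1.21 in int (difference 2.51, adjusted p = 0.000835), and Ctsw, a cathepsin of cytotoxic cells, with 9.67 ± 0.22 in high and 7.72 ± 0.45 in int (difference 1.95, adjusted p = 2.12e-07). Klrb1c, the NK marker given above, was also higher in 2 high arrays than in any int array, and its part in these differences was not tested.

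Genes of naive and central memory cells gave 7 lower and 1 higher of 23 measured, with a median of -0.42, the lowest of the 32 lists. The median span of these genes was 43.9 kb, the longest of the lists; of the 17 at a mean level of 6 or more, 6 were lower and 1 higher after removal of the span trend (median -0.26), against 9 and 2 before it, and without high replicate 2 the full list gave 3 lower and 0 higher. Actn1, an actin crosslinker, averaged 5.95 ± 0.18 in high and 7.81 ± 0.25 in int (difference -1.86 ± 0.25 SE, adjusted p = 1.89e-06). Foxo1, which drives Il7r and homing genes in resting T cells, had 6.99, 7.69, 7.32 and 7.68 in high, against 8.57, 8.25, 8.60 and 8.53 in int (difference -1.07, adjusted p = 5.25e-05). Every high array of both genes lay below every int array.

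Of 25 apoptosis genes, 4 fell and 0 rose, with a median of -0.02; without high replicate 2 the counts were 3 and 0. Mcl1, a survival member of the BCL2 family, had 7.94, 8.80, 8.89 and 9.31 in high, against 9.60, 9.64, 9.37 and 9.71 in int (difference -0.84 ± 0.16 SE, adjusted p = 0.000632). Its call was lost with only the 8 high and int arrays in the fit. Trp53inp1, a stress-response gene that favours cell death, also fell, with 7.93 ± 0.46 in high and 8.88 ± 0.16 in int (difference -0.95, adjusted p = 0.00271). The members that fell thus included a survival gene, a death ligand (Fasl) and a stress gene.

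**Figure D5:**
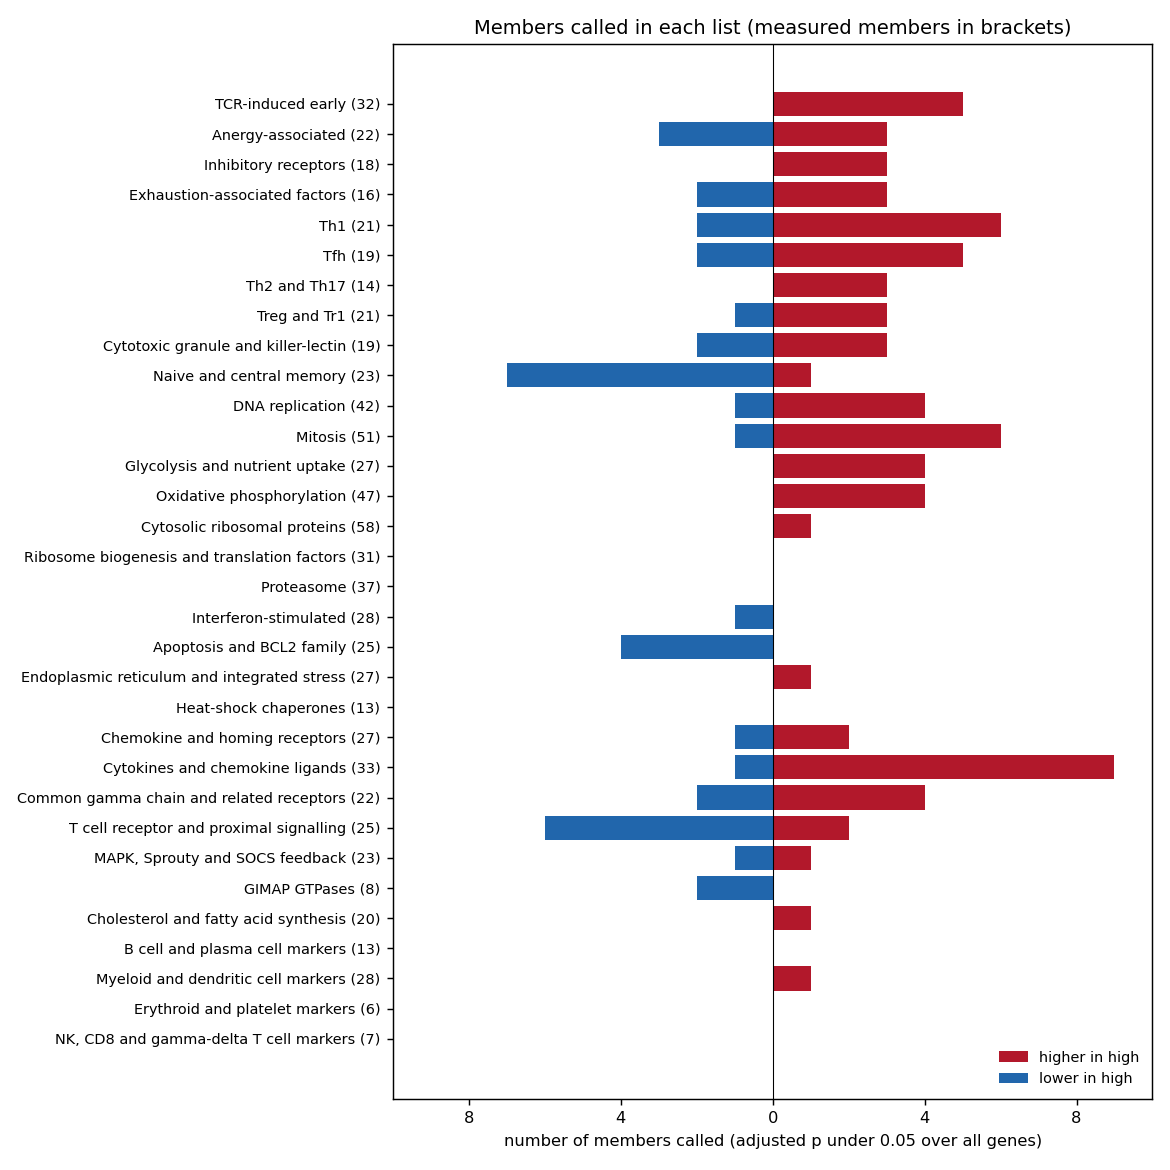
Number of members called higher (red, to the right) and lower (blue, to the left) in high against int in each of 32 gene lists, with the number of measured members in brackets. Cytokines and chemokine ligands have the most members higher (9 of 33), and naive and central memory genes (7 of 23) and proximal signalling genes (6 of 25) the most lower.

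Proliferation genes showed scattered rises at low signal. Mitosis genes gave 6 higher and 1 lower of 51 (median 0.17; 4 and 1 without high replicate 2), and DNA replication genes 4 higher and 1 lower of 42 (median 0.40). The replication calls were easily lost. Without high replicate 2 they were 0 higher and 0 lower, with the median still at 0.40. With arrays centred on their median they were 2 higher and 1 lower. Other arrays mattered too: without int replicate 3 the calls of Gins3 (-1.49), Uhrf1 (1.00), Prim1 (0.96) and Slbp (0.68) were lost. Top2a, the topoisomerase of dividing cells, had 6.72, 7.25, 6.98 and 6.92 in high, against 5.05, 5.44, 5.05 and 5.76 in int (difference 1.64 ± 0.22 SE, adjusted p = 1.61e-06). Smc4, a condensin subunit, moved the other way, with 9.45 ± 0.10 in high and 10.65 ± 0.13 in int (difference -1.20 ± 0.10 SE, adjusted p = 2.81e-11). Mki67 had 5.24, 5.01, 4.70 and 4.07 in high, against 4.11, 4.28, 4.58 and 5.63 in int, and only 1 high array lay outside the range of int (adjusted p = 0.946).

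The called members of the metabolic lists were all higher in high. Of 27 glycolysis and nutrient uptake genes, 4 rose and 0 fell (median 0.34), led by Tpi1, a glycolytic isomerase, with 6.95 ± 0.56 in high and 5.34 ± 0.50 in int (difference 1.60, adjusted p = 0.000931), and Psat1, an enzyme of serine synthesis, with 5.96 ± 0.55 in high and 4.72 ± 0.26 in int (difference 1.24, adjusted p = 0.00118). Of 47 oxidative phosphorylation genes, 4 rose and 0 fell (median 0.20), but 2 and 0 without high replicate 2 and likewise 2 and 0 with arrays centred on their median; Atp5e, a subunit of ATP synthase, averaged 11.93 ± 0.16 in high and 11.53 ± 0.11 in int (difference 0.39, adjusted p = 0.00362). Of 31 ribosome biogenesis genes, 37 proteasome genes and 13 heat-shock chaperones none was called, with medians of 0.18, 0.26 and 0.20. At the 2.99% called over all genes, lists this short would hold few calls or none. The median over all genes was 0.02. Of 28 interferon-stimulated genes 1 was called, a share of 3.57% that is near the 2.99% over all genes. It was Usp18, a brake on interferon signalling, lower at 6.24 ± 0.40 in high, against 7.30 ± 0.22 in int (difference -1.05, adjusted p = 0.0101). Of 23 MAP kinase, Sprouty and SOCS feedback genes, Spry2 rose and Rgs2 fell by 1.63 (adjusted p = 0.0137); the Rgs2 call was lost without int replicate 1 (-1.06, adjusted p = 0.175), the only int array at 8.25.

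The remaining genes at both ends of the range belong to none of these lists. Stfa3, a stefin that inhibits cysteine proteases, had 10.52, 9.68, 9.89 and 7.46 in high, against 2.51, 2.34, 2.20 and 2.30 in int (difference 7.05 ± 0.46 SE, adjusted p = 4.48e-15). It was near the floor in none (2.53 ± 0.41) and low (2.54 ± 0.09) too and varied among naive arrays (4.09 ± 1.47). Ctla2a, which encodes a propeptide-like inhibitor of cysteine cathepsins, mirrored it, with 2.12, 3.58, 2.43 and 3.36 in high, against 8.39, 7.89, 8.15 and 8.38 in int (difference -5.33 ± 0.51 SE, adjusted p = 3.7e-10). Ctla2a averaged 7.05 ± 0.54 in none and 7.49 ± 0.42 in low, and 5.39 ± 1.91 in naive cells, so the 4 high arrays were low against every other day 10 group. Both genes belong to families of near-identical neighbours, so a probe set may also read a relative.

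Of the other genes among the 15 highest, Ntrk3, a neurotrophin receptor, averaged 7.27 ± 0.71 in high and 3.55 ± 0.18 in int (difference 3.71, adjusted p = 6.8e-11). Nrgn, a calmodulin-binding protein of neurons, averaged 6.76 ± 0.68 in high and 3.13 ± 0.19 in int (difference 3.64, adjusted p = 2.14e-14). Cacna1d, a subunit of voltage-gated calcium channels, averaged 7.43 ± 0.91 in high and 4.07 ± 0.32 in int (difference 3.36, adjusted p = 2.39e-10). Nrn1, which encodes neuritin, averaged 8.95 ± 0.60 in high and 5.66 ± 0.85 in int (difference 3.28, adjusted p = 5.25e-05). In none their means were 3.45 for Ntrk3, 2.89 for Nrgn, 3.59 for Cacna1d and 4.09 for Nrn1, so the first 3 were near the floor in none, while Nrn1 also averaged 5.20 in low and 5.00 in naive cells.

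S100a4, a calcium-binding protein of motile cells, averaged 10.13 ± 0.40 in high and 6.78 ± 0.68 in int (difference 3.35, adjusted p = 1.67e-07). Plek, a substrate of protein kinase C, averaged 7.73 ± 0.21 in high and 4.48 ± 0.49 in int (difference 3.26, adjusted p = 1.15e-08), and Themis2, the B and myeloid cell relative of Themis, 6.80 ± 0.34 in high and 3.54 ± 0.21 in int (difference 3.26, adjusted p = 6.64e-13). Themis2 rose while Themis fell between the same arrays. Sccpdh averaged 7.06 ± 0.30 in high and 3.93 ± 0.44 in int (difference 3.12, adjusted p = 2.47e-11), above 2.71 ± 0.15 in none.

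On the lower side, Bmp7, a bone morphogenetic protein, averaged 4.32 ± 0.35 in high and 6.80 ± 0.54 in int (difference -2.48, adjusted p = 1.39e-07), and Tgfbr3, a co-receptor for TGF-beta ligands, 4.39 ± 0.30 in high and 6.59 ± 0.13 in int (difference -2.20, adjusted p = 2.89e-07). Adam19, a membrane metalloprotease, averaged 5.91 ± 1.15 in high and 8.40 ± 0.50 in int (difference -2.49, adjusted p = 4.15e-07), and Ift80, an intraflagellar transport protein, 5.45 ± 0.43 in high and 7.76 ± 0.42 in int (difference -2.31, adjusted p = 1.91e-07). Slc28a2b and Ifit1bl1 fell, with differences of -2.72 (adjusted p = 0.000151) and -2.19 (adjusted p = 0.000138); Ifit1bl1 was at 8.67 ± 0.44 in none and 7.58 ± 0.58 in int, and lowest at 5.38 ± 1.01 in high. Egln3, a prolyl hydroxylase that responds to low oxygen, averaged 3.57 ± 0.66 in high and 5.53 ± 1.23 in int (difference -1.96, adjusted p = 0.00247). High replicate 5 with 4.40 just overlapped int replicate 1 with 4.39, and the call was lost with only the 8 high and int arrays in the fit.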

How the data were processed

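RNA of sorted mouse CD4 T cells was hybridised to single-colour arrays. Per the labels' protocols, cells were sorted into Trizol, and RNA was amplified and labelled with biotin. The deposited log2 values were used unchanged; their range (1.46 to 13.87) is the basis for the log2 scale, and the sources used here do not give background correction or normalization. The number of arrays limits the precision, and dim genes have compressed differences. Of 41345 probe sets, 23521 carried 1 symbol, 1814 several and 16010 none; each of 22180 genes was read from its brightest probe set, by the mean of 43 arrays. The RefSeq gene table held 23477 of the probe sets' symbols.

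All arrays entered limma 3.58.1 in R 4.3.3 with 9 group means, and high minus int was tested with eBayes (prior trend) and Benjamini-Hochberg adjustment over all genes at 0.05. Named genes were 12 fixed ones, the 15 highest and 15 lowest called genes with established names, up to 4 called members of each list with the largest change, and checks of the sort. The comparison, the lists and the rule were chosen with earlier results of these data known. A simulation of this comparison planted 50 genes for each size of change, so its shares are coarse. Of those planted with a log2 difference of 0.5, the test found 5 (10%). It found 28 (56%) where the planted difference was 1 and 38 (76%) where it was 1.5. All 50 (100%) were found where it was 2. Of the 22180 genes, 6 were called falsely. Its noise model is not described here. Whether it held the span shift between the groups was not examined, so these shares may not apply to the real arrays. Promoter windows were found for 84 of 105 named genes. Alternatives were other scalings, priors, array weights, sets of arrays, filters, probe set rules, the replicate number as a block, and each array left out; a filter at level 6 with and without removal of the span trend (lowess in each array) was added after seeing the data. List members without a probe set of their own symbol were not analysed here.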

Additional observations from a re-analysis of the deposited data

Results flagged for a closer look

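Of 200 groups of 4 arrays of named genes, 15 held 1 array whose gap to the nearest other array was large for the range of the group by Dixon's test; chance gives about 1 in 20 groups. High replicate 2 was low for Egr2 (6.17, others 7.73 to 8.02) and for Sostdc1 (7.89, others 9.28 to 9.42). High replicate 5 was low for Ifng (5.77, others 7.27 to 7.46), Tnfrsf4 (8.10, others 9.03 to 9.14) and Cox5a (8.78, others 9.29 to 9.38). High replicate 3 was high for Ctsw (10.00, others 9.55 to 9.57) and Gins3 (4.64, others 4.00 to 4.10), and high replicate 4 for Plek (8.04, others 7.59 to 7.66). In int, replicate 1 was low for Ccl3 (4.17, others 5.48 to 5.68) and Capg (3.73, others 4.21 to 4.22) and high for Rgs2 (8.25, others 5.85 to 6.07). Int replicate 2 was low for Il10ra (7.74, others 8.23 to 8.27), int replicate 3 for Il2 (3.21, others 4.08 to 4.24), and int replicate 4 was high for Nt5e (7.89, others 7.01 to 7.16) and Ccnb2 (3.98, others 3.68 to 3.72).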

How the results depend on the processing

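The 664 calls became 345 (178 higher, 167 lower) with only the 8 high and int arrays in the fit, which has fewer arrays to estimate the spread, and ranged from 458 (without int replicate 1) to 922 (without high replicate 5) as each array was left out. The 310 calls of at least 2-fold ranged from 276 to 430 in the same way, and were 146 with only genes of mean level at least 6 and 122 with the span trend removed as well, both of which test fewer genes. Under the other alternatives both counts stayed within 1.5 times, though a filter on dim genes moved the split to 248 higher and 478 lower. Ptprc turned from -0.33 to 0.01 with the span trend removed. Of 92 called named genes, 59 stayed called under every alternative that could be run for them and 65 on leaving out each array. With only the 8 high and int arrays in the fit, 29 of them lost their call, among them Mcl1, Nr4a2 and Egln3. Deviations of high and int samples of the same replicate number correlated weakly, with r of 0.04, 0.03 and 0.10. For samples of different numbers r was -0.06 to 0.04. Whether the numbers pair the samples was not tested. With the replicate block, fitted on the 18 day 10 arrays, 552 genes were called and 323 by at least 2-fold, against 724 and 332 without it.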

Other observations

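Some gene families that the lists do not cover were looked at after their members' values were seen, so that their counts carry no test. Of 16 measured S100 genes, which encode small calcium-binding proteins, 5 were higher in high and 0 lower (median 0.34). S100a6 averaged 11.09 ± 0.25 in high and 8.38 ± 0.40 in int, and S100a11 11.97 ± 0.02 in high and 10.33 ± 0.13 in int, while S100a8 and S100a9, known from neutrophils, differed by 0.33 (adjusted p = 0.939) and 0.24 (adjusted p = 0.949). Of 11 annexins, the calcium-dependent membrane-binding partners of S100 proteins, 3 were higher and 0 lower: Anxa2 averaged 8.19 ± 0.22 in high and 5.51 ± 0.48 in int, Anxa5 8.09 ± 0.41 in high and 6.70 ± 0.32 in int, and Anxa7 6.86 ± 0.32 in high and 6.05 ± 0.24 in int. Of 8 galectins, 3 were higher and 0 lower, with Lgals1 at 9.85 ± 0.50 in high and 8.19 ± 0.28 in int. All 11 of these genes had every high array above every int array, as had 255 of the 311 genes called higher in the full set. Over all genes tested, 3.78% had this, and 1.40% were called higher and 1.59% lower.

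Of 6 alpha-2,8-sialyltransferase genes, which extend sialic acid chains on glycoproteins and gangliosides, 3 were lower and 0 higher. St8sia4 averaged 6.76 ± 0.66 in high and 8.62 ± 0.17 in int, St8sia6 4.80 ± 0.09 in high and 6.76 ± 0.42 in int, and St8sia1 3.82 ± 0.32 in high and 5.16 ± 0.09 in int. These 3 genes span 80 kb, 144 kb and 168 kb, and the part of the span trend in their differences was not tested. Of 10 guanylate-binding protein genes, known as interferon targets, 2 were lower and 0 higher, Gbp10 at 6.70 ± 0.91 in high and 8.40 ± 0.72 in int, and Gbp9 at 7.82 ± 0.44 in high and 8.93 ± 0.06 in int.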
